A study of Ovis aries with 2 samples.

Results

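IL31RA, IL6R, IL6ST, OSMR and LIFR encode receptor chains of the gp130 cytokine family, and they are 5 of the 26814 gene names counted in single blood cells of sheep. The set was chosen by name, and IL31RA was included because its counts in B cells lay far apart between the 2 libraries. That difference is therefore given as a description. All 5 names were present in both libraries.

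The series holds 1 library from each of 2 groups. The A.G.-ES library came from sheep that had an eluting suture loaded with astragaloside IV and glycyrrhizic acid embedded at ST36 on both sides, an acupuncture point on the hind limb below the knee. The untreated library came from sheep with no treatment. The series title describes the animals as weaned lambs. The sources used here give no age, breed, interval between embedding and bleeding, or number of sheep behind a library. Peripheral blood mononuclear cells (PBMCs) of both groups were isolated on a density gradient, were not cultured, and were barcoded in droplets with a kit that reads the 3′ end of each transcript and tags it with a unique molecular identifier (UMI). With 1 library per group there is no replicate and no test between treatments. The intervals given are exact 95% intervals that cover counting error only.

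The cytokines of this family act through gp130, the shared signal-transducing chain encoded by IL6ST. Interleukin-6 first binds its own receptor chain, encoded by IL6R, and the pair then engages gp130. Leukaemia inhibitory factor uses LIFR with gp130, and oncostatin M uses OSMR or LIFR with gp130. IL31RA is the chain of this family that pairs with OSMR, without gp130, to bind interleukin-31, a cytokine of activated T cells known for its part in itch. Janus kinases bound to these receptors phosphorylate STAT factors, chiefly STAT3, and SOCS3 then damps the signal. Naive and central memory CD4 T cells and monocytes are the blood cells best known for the IL-6 receptor, whereas gp130 is widespread.

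After filtering, 8737 A.G.-ES and 7565 untreated barcodes remained, with a median of 4101 and 5123 UMIs. Barcodes were sorted into 7 gates by marker genes. B barcodes numbered 1791 in the A.G.-ES library and 3236 in the untreated library, CD4 T barcodes 1199 and 289, and CD8B T barcodes 512 and 142. T barcodes with SOX13 and RHEX but neither CD4 nor CD8B numbered 425 and 691, monocytes 195 and 108, cycling barcodes 45 and 278, and natural killer (NK) barcodes 44 and 35. The markers bore out a PBMC preparation. The summed B markers reached 3953 and 5424 UMIs per 1000000 (CPM) in B barcodes, the T markers 2487 and 2390 CPM in CD4 T barcodes, and the monocyte markers 5451 and 6497 CPM in monocytes. The 4 erythroid markers together stayed at or below 0.846 CPM in each of the 7 gates of both libraries. Platelet markers ran from 3.49 to 27.9 CPM over the 7 A.G.-ES gates and from 0 to 37.9 CPM over the 7 untreated gates. B markers came to 181 CPM in the A.G.-ES NK gate and 497 CPM in the untreated one, beside 253 and 319 CPM in SOX13/RHEX T and 191 and 294 CPM in CD8B T barcodes, so these gates are not free of B-marker transcripts. The libraries shared 55 barcode sequences among those kept. They also differed in transcripts of Y-linked genes, at 19.2 CPM in the A.G.-ES library and 800.5 CPM in the untreated library. That difference runs alongside treatment, and for any gene below it and the treatment cannot be told apart.

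IL31RA was nearly absent from the A.G.-ES library and spread over the whole untreated library. It had 5 UMIs (0.127 CPM) in all A.G.-ES barcodes kept, against 1039 UMIs (20.6 CPM, 19.3 to 21.9) in untreated ones. The A.G.-ES level was 0.00619 of the untreated level (0.00201 to 0.0145), a log2 ratio of −7.34. A UMI of IL31RA was present in 0.0572% of A.G.-ES barcodes and in 11.8% of untreated barcodes. The 5 A.G.-ES UMIs lay in 5 separate barcodes: 2 B, 1 CD4 T, 1 SOX13/RHEX T and 1 T barcode outside the subset gates. In the untreated library 773 barcodes had 1 UMI, 110 had 2, 9 had 3, 3 had 4, and 1 cycling barcode had 7. The untreated signal was thus made of single molecules in many cells and did not rest on a few rich barcodes.

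IL31RA was lower in the A.G.-ES library in all 5 gates with at least 20 UMIs over both libraries. B barcodes had 2 IL31RA UMIs (0.193 CPM) in the A.G.-ES library and 653 UMIs (22.1 CPM, 20.5 to 23.9) in the untreated library, a ratio of 0.00870 (0.00105 to 0.0316). CD4 T barcodes had 1 UMI (0.169 CPM) and 33 UMIs (20.3 CPM, 13.99 to 28.5), a ratio of 0.00831 (0.000204 to 0.0496). SOX13/RHEX T barcodes had 1 UMI (0.490 CPM) and 49 UMIs (15.9 CPM, 11.8 to 21.1), a ratio of 0.0308 (0.000764 to 0.180). The 3 intervals overlap, so the difference was not resolved as larger in any of these gates. CD8B T barcodes had none in the A.G.-ES library and 21 UMIs (24.9 CPM, 15.4 to 38.1) in the untreated library. The ratio there was 0, with an interval of 0 to 0.0685. Cycling barcodes had none and 122 UMIs (25.8 CPM, 21.4 to 30.8), a ratio of 0 (0 to 0.197). In monocytes there were 0 and 7 UMIs (10.9 CPM untreated, 4.399 to 22.5), and in NK barcodes 0 and 3 UMIs (21.6 CPM untreated, 4.46 to 63.2), too few for a ratio.

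**Figure D1:**
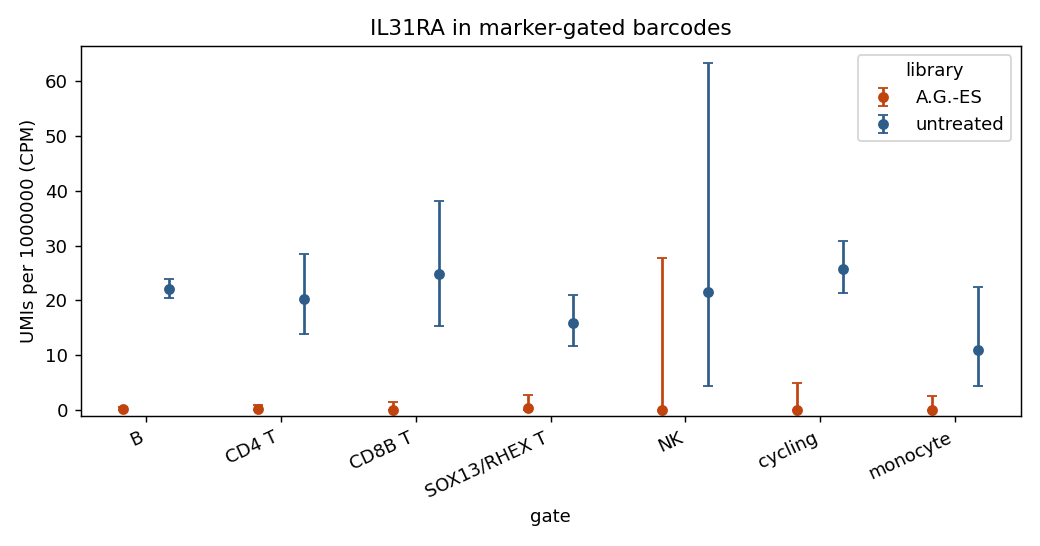
IL31RA level (UMIs per 1000000, vertical axis) in each of the 7 marker gates, with A.G.-ES on the left and untreated on the right of each pair. Points are levels of summed counts and bars exact 95% Poisson intervals. The untreated gates lie between 10.9 and 25.8 CPM, and no A.G.-ES gate exceeds 0.490 CPM.

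Within the untreated library, IL31RA was present in every gate, and among the lymphocyte gates only SOX13/RHEX T lay below B barcodes beyond counting error. Ordered by level, cycling barcodes came first at 25.8 CPM, then CD8B T at 24.9, B at 22.1, NK at 21.6, CD4 T at 20.3, SOX13/RHEX T at 15.9 and monocytes at 10.9 CPM. Every pair of neighbours in that order had overlapping intervals. The T gates together stood at 83.9% of the B level (67.5 to 103), with CD4 T at 91.8% (62.6 to 130), CD8B T at 112% (69.1 to 173) and SOX13/RHEX T at 71.9% (52.7 to 96.2). Monocytes stood at 49.4% (19.8 to 102). B barcodes held 62.8% of the IL31RA UMIs and 58.4% of all UMIs of the untreated library, and cycling barcodes held 11.7% and 9.37%. The share of barcodes with a UMI followed depth: it was 17.3% in B barcodes (median 8704.5 UMIs) and 31.7% in cycling barcodes (median 16588.5 UMIs). After each barcode was thinned to 1500 UMIs, the share over all possible draws was 3.26% in B, 3.26% in CD4 T, 3.56% in CD8B T, 2.17% in SOX13/RHEX T, 3.51% in cycling and 1.43% in monocyte barcodes.

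The divisions of each gate lay close together as well. Untreated B barcodes with SOX5, a factor of an atypical B-cell type, had 20.2 CPM of IL31RA (17.8 to 22.8). Those with at least 2 plasmablast markers had 23.7 CPM (21.3 to 26.2). B barcodes with neither FCER2 nor the other division genes had 23.3 CPM (14.004 to 36.3). Cycling barcodes stood at 23.3 CPM (18.3 to 29.2) where they carried B markers and at 33.2 CPM (24.0 to 44.9) where they carried T markers. The CD4 T barcodes without CCR7, a homing receptor of naive cells, had 21.2 CPM (14.3 to 30.3). Only the interval of cycling barcodes with T markers lay wholly above that of the B gate, by a narrow margin.

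The level per cell was then set beside the ambient level, that is, the amount of a gene found in cells that do not make it. The deposited barcodes start at 500 UMIs in the A.G.-ES library and 501 in the untreated library, so empty droplets were not analysed here. In their place stood 8 B-lineage genes that no gate uses, read in the T gates. Free RNA from B cells would put all of them, and IL31RA, at a like small percentage of the B level. EBF1, a transcription factor that commits cells to the B lineage, was at 0.861% of its B level in the T gates (0.694 to 1.06), with 92 and 56813 UMIs. CD24, a surface glycoprotein of immature and activated B cells, was at 0.846% (0.552 to 1.24). POU2AF1, TNFRSF13C, FCRL1 and SPIB lay at 1.51%, 1.63%, 1.91% and 2.21%. CR2, the complement receptor of mature B cells, was at 12.8% (2.60 to 38.2) on 3 UMIs in the T gates. BLK, a Src-family kinase, was the exception at 280% (262 to 299.7), because SOX13/RHEX T barcodes held it at 501% of the B level, and it is no marker of free B-cell RNA here. The median over the 8 genes was 1.77% in the T gates and 1.56% in monocytes, where IL31RA stood at 83.9% and 49.4%. IL31RA in the T gates was thus above 7 of the 8 genes on this scale. Free RNA from a source other than B cells was not tested.

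**Figure D2:**
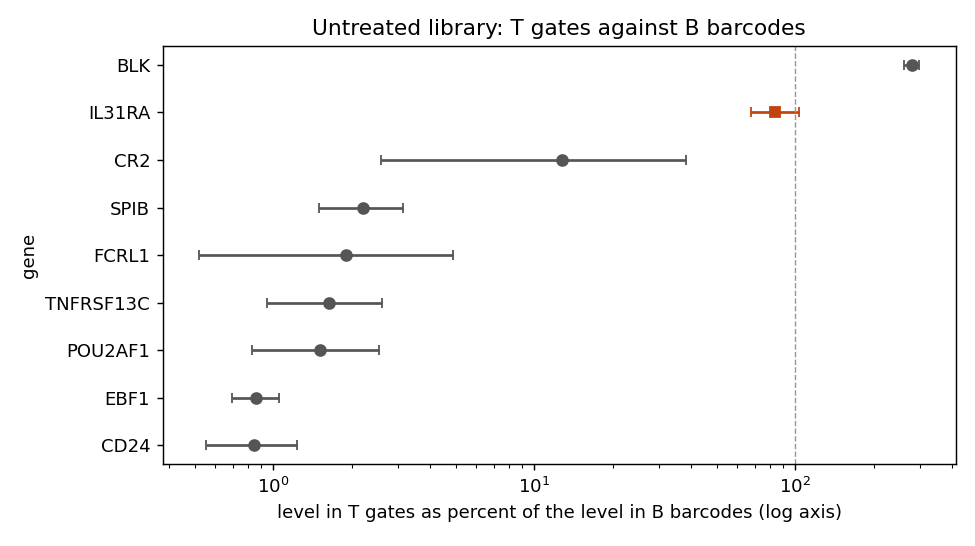
Level of IL31RA (square) and of 8 B-lineage genes (circles) in the T gates of the untreated library, as a percentage of the level in B barcodes, on a log axis with 95% counting intervals. IL31RA lies at 83.9%, beside the dashed line that marks an equal level, whereas 6 of the 8 B genes lie between 0.846% and 2.21%.

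The IL31RA count per barcode was higher in deeper barcodes. Untreated B barcodes were split into 5 equal groups by depth. IL31RA UMIs per barcode were 0.0694, 0.138, 0.187, 0.247 and 0.368 from the shallowest to the deepest group, while the mean depth went up from 3573 to 15829 UMIs. As CPM the same groups had 19.4, 20.8, 21.5, 22.8 and 23.2, with overlapping intervals. In the T gates IL31RA ran from 0.0489 UMIs per barcode in the shallowest group to 0.178 in the deepest, and EBF1 from 0.0667 to 0.120. There the intervals of the 2 genes overlap in every group, and the depth pattern does not separate them.

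**Figure D3:**
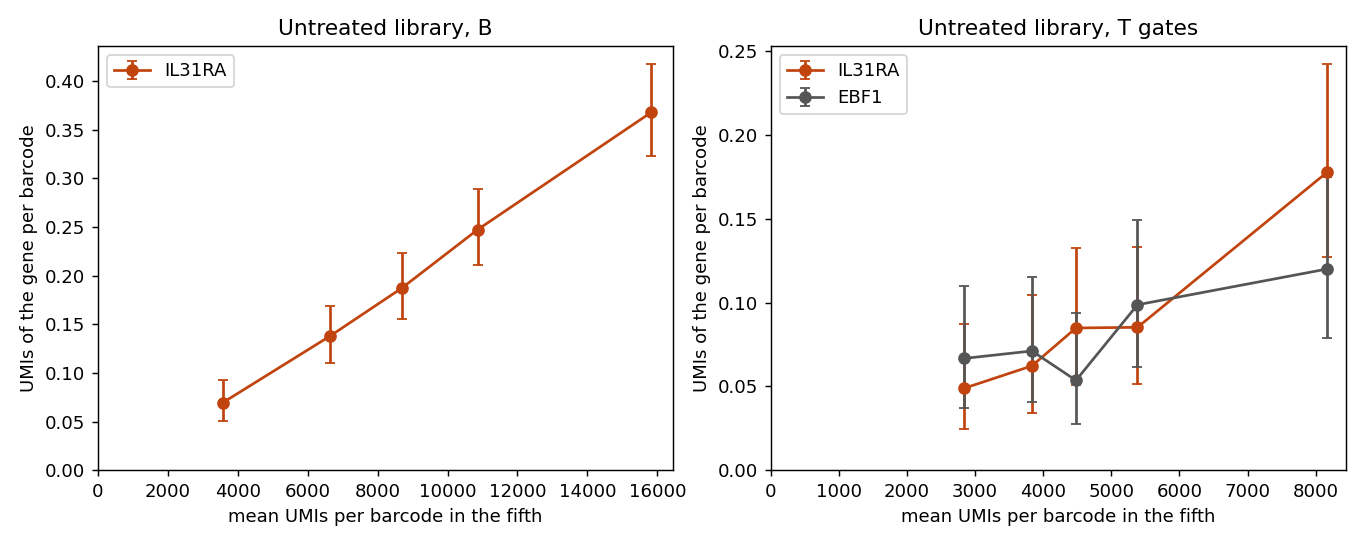
UMIs of a gene per barcode (vertical axis) against the mean depth of 5 equal depth groups (horizontal axis) in the untreated library, B barcodes left and T gates right, with 95% counting intervals. In B barcodes IL31RA runs from 0.0694 to 0.368 with depth. In the T gates IL31RA and EBF1 overlap throughout.

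Genes were ranked by how closely their log2(CPM + 1) values followed IL31RA over the 14 values of 7 gates in 2 libraries. These values share libraries, so a gene that differs between the libraries in every gate ranks high whatever its biology. Among 9646 genes with a symbol, the closest were IGF2BP3, an RNA-binding protein (Pearson r 0.927), RBM19 (0.907), FLYWCH2 (0.873), ZNF71 (0.857) and RASGRF2 (0.853). IGF2BP3 had 76 A.G.-ES and 2415 untreated UMIs. Over all 10640 names, 6 of the first 10 were genes without a symbol that the RefSeq table of the assembly ARS-UI_Ramb_v3.0 places on the Y chromosome, led by LOC132659062 (r 0.995) with 0 and 3386 UMIs. Summed, these 6 genes had 9 UMIs in the A.G.-ES library and 38751 UMIs (768 CPM) in the untreated library. In untreated barcodes they were high in every gate, from 714 CPM in SOX13/RHEX T to 1125 CPM in CD4 T. For each IL31RA UMI there were 29.3 of theirs in cycling barcodes, 32.8 in B, 55.4 in CD4 T and 73.0 in monocytes. The monocyte value rests on 7 IL31RA UMIs. No interval was computed for these quotients, and whether the 2 signals keep 1 ratio was not tested. A UMI of the 6 genes was present in 0.103% of A.G.-ES and 89.2% of untreated barcodes. IL31RA stood at 20.8 CPM (19.6 to 22.2) in untreated barcodes with such a UMI and at 14.6 CPM (9.93 to 20.8) in the 815 without. Among untreated barcodes of at least 5000 UMIs, 98.2% had one, and the values were 22.2 CPM (20.7 to 23.7) with and 17.4 CPM (7.52 to 34.3) without.

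IL31RA lay apart from the genes beside it in the same annotation. DDX4, a germ-cell helicase and the next gene on one side, had 2 A.G.-ES and 11 untreated UMIs. SLC38A9, a lysosomal amino acid transporter, had 26.4 and 44.2 CPM, and PLPP1, a lipid phosphatase, 25.6 and 26.7 CPM. On the other side lie a pseudogene not analysed here, LOC114118738 at 12.2 and 11.9 CPM, and then IL6ST. The A.G.-ES to untreated ratios of these neighbours ran from 0.234 (0.0252 to 1.07) for DDX4 to 1.24 (1.13 to 1.36) for IL6ST, against 0.00619 for IL31RA.

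OSMR and LIFR, the partner chain of IL31RA and the leukaemia inhibitory factor receptor, were barely detected. OSMR had 0 UMIs in the A.G.-ES library and 2 in the untreated library, both in B barcodes. LIFR had 0 and 4, with 3 in B barcodes and 1 in a T barcode outside the subset gates. A count of 0 in the A.G.-ES library has an exact interval up to 0.0940 CPM. Of the 6 genes nearest to OSMR in the annotation, RICTOR had 166 and 183 CPM and FYB1, an adaptor of T-cell signalling, 715 and 181 CPM, while the other 4 had at most 4 UMIs in a library. LOC105602664, with 4 and 1 UMIs, and LOC114118742, with none, overlap OSMR, so its reads could be counted under those names. The partner chain of IL31RA thus had 2 UMIs counted under its own name in the untreated library, in which IL31RA was spread over all gates. No level can be compared between the libraries for OSMR or LIFR.

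IL6R was highest in monocytes and CD4 T barcodes and lower in the A.G.-ES library in 4 of 7 gates. Monocytes had 70 UMIs (48.9 CPM, 38.1 to 61.8) in A.G.-ES cells and 51 UMIs (79.7 CPM, 59.4 to 104.8) in the untreated library, a ratio of 0.614 (0.422 to 0.899) and a log2 ratio of −0.70. CD4 T barcodes had 119 UMIs (20.1 CPM) and 54 UMIs (33.2 CPM), a ratio of 0.604 (0.435 to 0.850; log2 −0.73). B barcodes had 30 UMIs (2.89 CPM) and 209 UMIs (7.09 CPM), a ratio of 0.408 (0.268 to 0.5999; log2 −1.29). By B division, IL6R stood at 2.05 and 5.36 CPM with SOX5 and at 4.13 and 8.75 CPM with plasmablast markers (358 and 1371 barcodes). In the FCER2-negative division it was 3.35 and 2.45 CPM, on 5 and 2 UMIs. The NPAS3 and FCER2-positive divisions had at most 2 UMIs in a library. The part of the differing makeup of the B gate was not tested. SOX13/RHEX T barcodes had 16 UMIs (7.84 CPM) and 46 UMIs (14.95 CPM), a ratio of 0.525 (0.277 to 0.944; log2 −0.93), and 1 untreated barcode held 8 of the 46. With at least 4 T markers asked for, that gate kept 6 and 7 IL6R UMIs and its log2 ratio was 0.094, so the direction there rests on few molecules. The CD4 T and monocyte values came within 1.5-fold after thinning (log2 −0.51 and −0.49), and the CD4 T value also under TMM scaling (−0.56) and with every barcode weighted alike (−0.49).

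The remaining gates held IL6R at like levels or too few counts. Cycling barcodes had 14 UMIs (19.0 CPM, 10.4 to 31.9) in A.G.-ES cells and 85 UMIs (18.0 CPM, 14.3 to 22.2) in the untreated library, a ratio of 1.06. CD8B T barcodes had 10 and 4 UMIs (4.23 and 4.74 CPM), and NK barcodes 1 and 0. In the order of levels, monocytes stood above CD4 T, and CD4 T above the SOX13/RHEX T, B and CD8B T gates, with no overlap of intervals at those steps in either library, the cycling and NK gates aside. Over all barcodes kept, IL6R was level, at 12.05 CPM in the A.G.-ES and 12.003 CPM in the untreated library, a ratio of 1.00 (0.888 to 1.13). The libraries differ in makeup: B barcodes, low in IL6R, held 26.4% of A.G.-ES and 58.4% of untreated UMIs, and CD4 T barcodes 15.1% and 3.22%. A level over all barcodes therefore mixes the differences inside gates with the makeup of each library.

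Inside the CD4 T gate, IL6R had its higher values in cells with CCR7, with intervals that overlapped those of cells without it. Such barcodes had 37.2 CPM (22.0 to 58.8) in A.G.-ES cells and 77.9 CPM (31.3 to 161) in the untreated library, where they numbered 91 and 13. CD4 T barcodes without CCR7 had 19.1 CPM (15.5 to 23.2) and 30.4 CPM (22.0 to 41.0). Barcodes with FOXP3, the regulatory T-cell factor, had 1 UMI in 37 A.G.-ES cells and 4 UMIs in 22 untreated cells, too few to set against the rest. Among untreated cycling barcodes, IL6R stood at 22.0 CPM (17.2 to 27.8) with B markers and 6.33 CPM (2.73 to 12.5) with T markers. The value with B markers is above the 7.09 CPM (6.16 to 8.12) of untreated B barcodes outside the cycle, at median depths of 17447 and 8704.5 UMIs. The A.G.-ES library had 8 cycling barcodes with B markers, at 26.1 CPM (9.56 to 56.7) on 6 UMIs.

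IL6ST, the gp130 gene itself, was higher in the A.G.-ES library in B barcodes and lower there in SOX13/RHEX T barcodes. B barcodes had 104 UMIs (10.0 CPM, 8.19 to 12.1) in A.G.-ES cells and 139 UMIs (4.71 CPM, 3.96 to 5.56) in the untreated library, a ratio of 2.13 (1.63 to 2.76) and a log2 ratio of 1.09. In 1 random draw of 1500 UMIs per barcode the log2 ratio was 1.89, with an IL6ST UMI left in 30 A.G.-ES and 16 untreated B barcodes. Over all possible draws the share with an IL6ST UMI was 1.47% in A.G.-ES and 0.667% in untreated B barcodes. SOX13/RHEX T barcodes had 67 UMIs (32.9 CPM, 25.5 to 41.7) and 188 UMIs (61.1 CPM, 52.7 to 70.5), a ratio of 0.538 (0.401 to 0.714; log2 −0.90). CD4 T barcodes had 228 UMIs (38.5 CPM, 33.7 to 43.8) and 67 UMIs (41.2 CPM, 32.0 to 52.4), a ratio of 0.933. In CD8B T barcodes there were 39 and 18 UMIs (16.5 and 21.3 CPM), in monocytes 47 and 16 (32.9 and 25.01 CPM), in cycling barcodes 9 and 42 (12.2 and 8.88 CPM), and in NK barcodes 6 and 4. These 5 gates had overlapping intervals between the libraries. Over all barcodes kept the level was 23.4 CPM (21.9 to 24.9) in A.G.-ES cells and 18.8 CPM (17.6 to 20.03) in the untreated library, although it was 32.3 and 49.2 CPM in the T gates together. In the annotation a second gene, LOC114118738, overlaps IL6ST, so reads of the shared stretch may be counted under either name. It had 12.2 and 11.9 CPM.

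The order of IL6ST levels over gates differed between the libraries. In the untreated library SOX13/RHEX T came first at 61.1 CPM with its interval just above that of CD4 T at 41.2 CPM, and B barcodes came last at 4.71 CPM. In the A.G.-ES library NK barcodes led on 6 UMIs, followed by CD4 T, monocytes and SOX13/RHEX T between 38.5 and 32.9 CPM with overlapping intervals, and B barcodes were again last at 10.0 CPM, overlapping cycling barcodes at 12.2 CPM. B barcodes stood at 31.0% of the T gates in the A.G.-ES library (24.6 to 38.7) and at 9.57% in the untreated library (7.75 to 11.8). T-cell transcripts in B barcodes also differed between the libraries. Of 3 T genes read in the same way and chosen after the data were seen, CD2 stood at 4.14% of its T level in A.G.-ES B barcodes and 0.251% in untreated ones, LCK at 10.4% and 4.57%, and PRKCQ at 17.6% and 8.85%. The summed T markers were 46.5 CPM in A.G.-ES and 21.3 CPM in untreated B barcodes. Their part in the IL6ST difference was not tested.

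B barcodes with FCER2, the low-affinity IgE receptor of naive-like B cells, had the highest IL6ST value among A.G.-ES B divisions, with an interval above that of the SOX5 division and overlapping that of the FCER2-negative one. They had 26.9 CPM (14.7 to 45.1) on 14 UMIs in 114 cells. The 18 untreated cells with FCER2 had 0 UMIs, with an interval up to 32.3 CPM. A.G.-ES B barcodes with SOX5 had 9.12 CPM (6.75 to 12.1), against 3.50 CPM (2.55 to 4.68) in untreated ones. Those with plasmablast markers had 9.01 CPM (5.77 to 13.4) and 5.49 CPM (4.39 to 6.78). Barcodes in the FCER2-negative division stood at 10.7 CPM (6.13 to 17.4) and 9.79 CPM (4.23 to 19.3). The difference between libraries was thus clear of counting error in the SOX5 division, and the intervals of the plasmablast and FCER2-negative divisions overlapped.

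**Figure D4:**
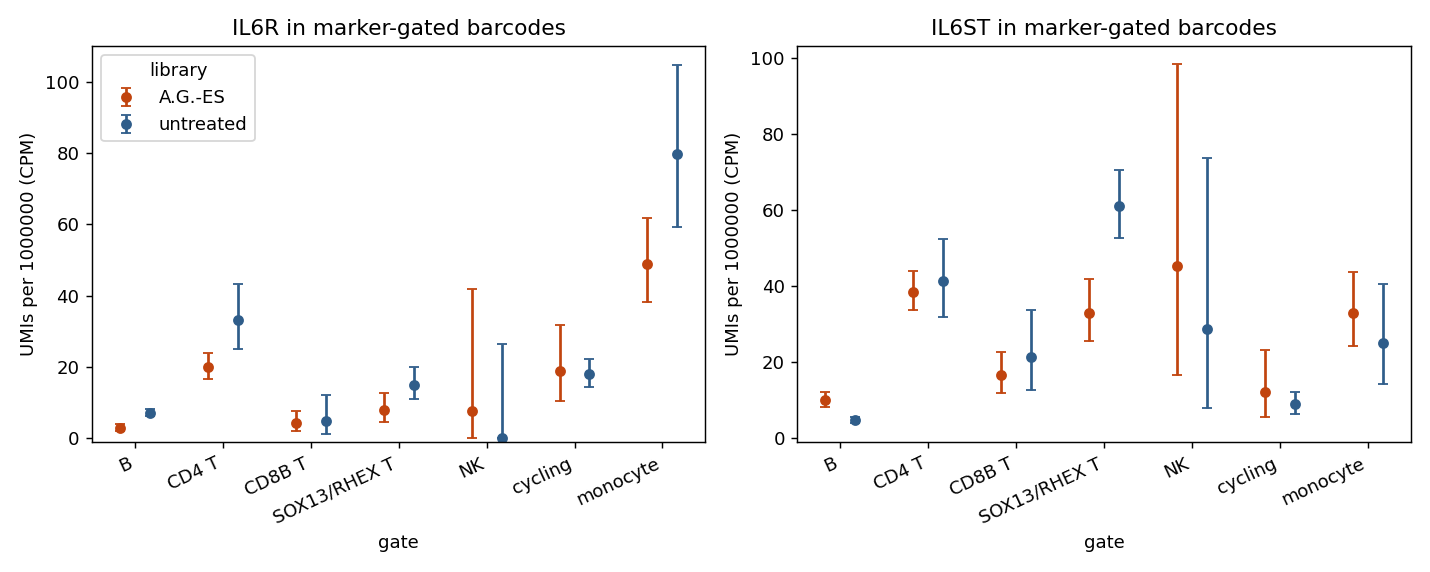
IL6R (left panel) and IL6ST (right panel) in UMIs per 1000000 over the 7 gates, A.G.-ES left and untreated right in each pair, with exact 95% Poisson intervals. IL6R in CD4 T barcodes is 20.1 CPM in the A.G.-ES and 33.2 CPM in the untreated library. IL6ST in SOX13/RHEX T barcodes is 32.9 and 61.1 CPM, and in B barcodes 10.0 and 4.71 CPM.

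The members can be read against all genes of a gate. A gene was called when it had at least 20 UMIs over both libraries and lay at least 1.5-fold apart. In B barcodes 3 of the 5 members passed the minimum, 1 (IL6ST) was higher and 2 (IL31RA and IL6R) lower, where 15.6% and 16.2% of 12197 genes were higher and lower. In CD4 T barcodes none was higher and 2 of 3 were lower, against 11% and 15.8% of 9740 genes. In SOX13/RHEX T barcodes all 3 past the minimum were lower, against 17.2% of 8983 genes that were lower and 9.3% that were higher. In CD8B T barcodes 1 of 2 (IL31RA) was lower and none higher, against 27.1% and 10.2% of all genes. In cycling barcodes 1 of 3 (IL31RA) was lower and none higher, against 18.6% and 14.7%. In monocytes 1 of 2 (IL6R) was lower and none higher, against 17% and 14.4%. No member passed the minimum in NK barcodes, where 18.2% of genes were lower and 21.4% higher. In the T gates together 2 of 3 (IL31RA and IL6ST) were lower and none higher, against 13.7% and 10.3%. The IL6ST value there was −0.61, and −0.48 under TMM scaling, within 1.5-fold. Over all barcodes kept 1 of 3 (IL31RA) was lower and none higher, against 17.7% and 18.6%. With at most 3 members past the minimum in a gate, and IL31RA picked for its difference, nothing is read from these counts against those shares.

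IL6R and IL6ST, whose products form the IL-6 receptor, were found together in few cells. Both had a UMI in 56 A.G.-ES and 53 untreated barcodes, where the product of their separate shares gives 33.3 and 47.7. In CD4 T barcodes the counts were 17 and 12, beside products of 14.3 and 6.34. In monocytes the counts were 7 and 2, below products of 9.23 and 3.97, and in untreated SOX13/RHEX T barcodes 5, below 7.87. Co-detection at matched depth was not tested. IL31RA and IL6ST shared 1 A.G.-ES barcode and 64 untreated barcodes.

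The rest of the pathway was followed through 39 listed ligands, receptor chains, kinases, STATs, feedback genes and targets, of which 38 were measured. In B barcodes 29 passed the minimum, 7 were higher and 3 lower, where 15.6% of all genes were higher and 16.2% lower. Their median log2 ratio was 0.18 beside −0.07 for all genes. The kinases JAK2 (41.3 and 27.3 CPM, log2 0.60) and TYK2 (23.7 and 15.4 CPM, 0.63) were higher in A.G.-ES B barcodes. So were the feedback inhibitors SOCS1 (19.8 and 13.1 CPM, 0.60) and SOCS3 (3.08 and 1.76 CPM, 0.81). Of the targets, JUNB, an AP-1 subunit, was higher at 266 and 163 CPM (0.70), and CEBPB, an acute-phase regulator, at 34.9 and 21.2 CPM (0.72). In contrast, PIM1, a survival kinase induced by STAT factors, was lower at 5.68 and 12.7 CPM (−1.16), and MYC, a growth regulator, at 50.8 and 150.2 CPM (−1.57). The targets therefore did not move in 1 direction. The 4 list members with most UMIs over all barcodes stayed within 1.5-fold in B barcodes: JAK1 at 0.02, PIAS1 at 0.08, STAT5B at −0.53 and PTPN2 at −0.09. STAT3, the main factor downstream of gp130, was at 81.9 and 70.5 CPM (0.22).

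In CD4 T barcodes 1 of 26 genes past the minimum was higher and 2 were lower, where 11% of all genes were higher and 15.8% lower. The median was −0.27 beside −0.13 for all genes. The higher one was CLCF1, a ligand of the ciliary neurotrophic factor receptor, with 26 and 2 UMIs (log2 1.83, ratio 3.56, 0.892 to 31.0), named after its values were seen. CISH, a feedback gene of STAT5, was lower at 6.92 and 14.8 CPM (−1.09), and so was ADAM17, the protease that sheds the IL-6 receptor, at 63.8 and 97.3 CPM (−0.61, or −0.44 and no longer past 1.5-fold under TMM scaling). JAK1 was at −0.25, STAT5B at −0.31, PIAS1 at −0.35, PTPN2 at −0.26 and STAT3 at −0.36, none past 1.5-fold. In SOX13/RHEX T barcodes 23 passed, 2 higher (among them SOCS1 at 1.43) and 2 lower (SOCS3 at −0.81 and CEBPB at −0.95), with a median of −0.03 beside −0.13, where 9.3% and 17.2% of all genes were called; these 3 are named after their values were seen. SOCS3 had 28.4 and 49.7 CPM there. Monocytes had 1 higher (BCL6, a transcriptional repressor) and 1 lower (CLCF1) of 22, where 14.4% and 17% of all genes were called, with a median of −0.14 beside −0.06. BCL6 had 174 and 51 UMIs there, a ratio of 1.53 (1.11 to 2.13). CLCF1 had 19 and 14 UMIs, a ratio of 0.607 with an interval of 0.289 to 1.31, so its direction was not resolved. Both are named after their values were seen.

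**Figure D5:**
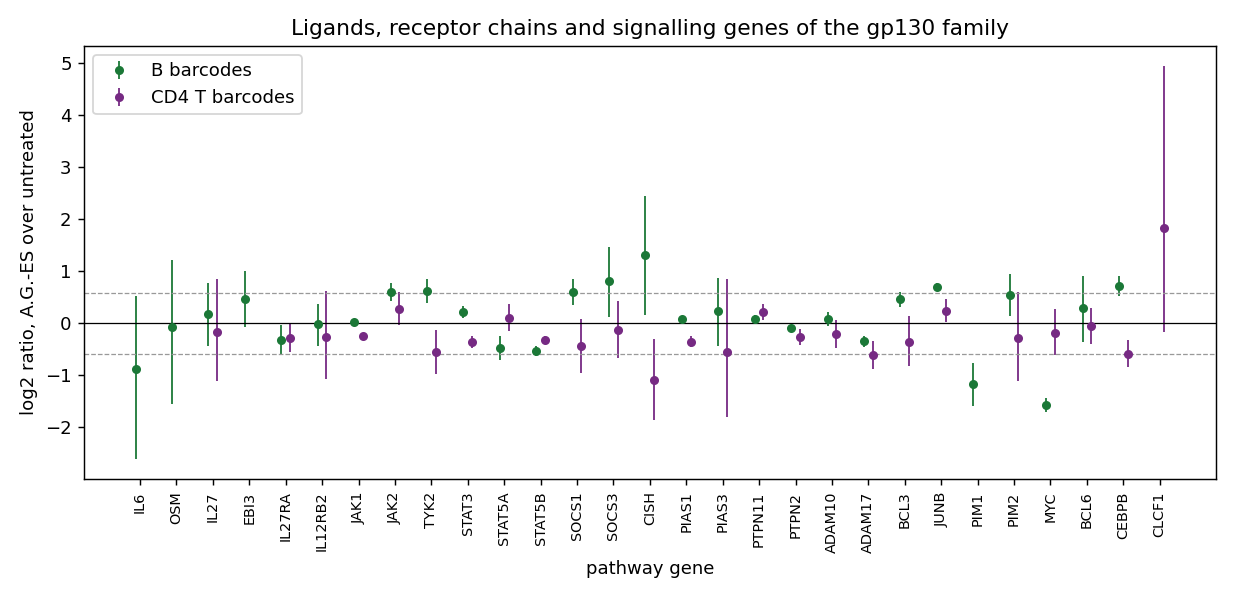
Log2 ratio of CPM, A.G.-ES over untreated, for pathway genes past 20 UMIs in B and CD4 T barcodes, with 95% counting intervals and dashed lines at 1.5-fold. MYC lies at −1.57 and JUNB at 0.70 in B barcodes, and CISH at −1.09 in CD4 T barcodes. Most other CD4 T values lie just below 0.

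Of the ligands, oncostatin M stood out in monocytes, with 127 UMIs (88.8 CPM) in the A.G.-ES library and 51 UMIs (79.7 CPM) in the untreated library, a ratio of 1.11 (0.799 to 1.57). Over all barcodes interleukin-6 had 11 UMIs in the A.G.-ES library and 32 in the untreated library. Over all barcodes oncostatin M had 225 UMIs (5.73 CPM) and 124 UMIs (2.46 CPM), and leukaemia inhibitory factor 11 and 15 UMIs. Interleukin-31 itself was not analysed here. Across all barcodes 13 of 34 list genes were higher and 4 lower, where 18.6% and 17.7% of all genes were, with STAT3 at 237 and 135 CPM (0.81) and STAT5B at 485 and 262 CPM (0.89), although neither passed 1.5-fold inside B or CD4 T barcodes. As for IL6R, the makeup of the 2 libraries enters such values. Fewer cells of a kind and less RNA per cell cannot be told apart in them.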

How the data were processed

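For each library (SeekOne DD 3′ kit, per the labels) the authors deposited unnormalized UMI counts, genes by barcodes. How reads were aligned and counted, on which build, and how cells were called is not given in the sources used here. There were 0 other columns of per-sample values. Totals were 44485442 UMIs over 9638 A.G.-ES barcodes and 55861418 over 8246 untreated barcodes.

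Barcodes with at least 500 UMIs, 200 genes and at most 15% mitochondrial UMIs were kept, which removed 186 A.G.-ES and 158 untreated barcodes. The barcodes with the highest Scrublet scores (scanpy 1.11.5) were removed as doublets at 0.8% per 1000 barcodes (715 and 523). A cycling barcode had at least 4 cycling markers. Other barcodes took the lineage with at least 3 markers detected and at least 2 more than any other. SOX13/RHEX T barcodes had at least 2 UMIs of those genes. In all, 33.1% of A.G.-ES and 31.6% of untreated barcodes fitted no gate. T gates means the CD4 T, CD8B T and SOX13/RHEX T gates together. Divisions were exclusive: in B barcodes at least 2 plasmablast markers took precedence, then a UMI of SOX5, NPAS3 or FCER2 in that order, and in CD4 T barcodes FOXP3 before CCR7. CD3G, TRAT1, FCN1, CD163, HMMR, PF4 and IL31 were not analysed here, and 1 pathway gene is counted but not reported here by name.

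Counts were summed per gate and library and given as CPM with exact Poisson intervals, shares with Clopper-Pearson intervals, and ratios with exact conditional binomial intervals (scipy 1.17.1). UMIs were treated as molecules. edgeR 4.0.16 served for TMM scaling factors only. The ratio intervals were tested on simulated independent Poisson counts, the model they assume. That simulation held no clustering of UMIs in barcodes and no variation between libraries. Members, lists and gates were chosen with earlier results of these data known. Named genes were the 5 members, pathway genes past 1.5-fold with at least 50 UMIs in B or CD4 T barcodes, the 4 pathway genes with most UMIs, 3 annotated neighbours on each side of a member, the 5 genes most like IL31RA among those with at least 200 UMIs, and the 8 B reference genes. All gene names matched the RefSeq table of ARS-UI_Ramb_v3.0, which was used only for names, neighbours and the Y chromosome. Alternatives covered the filters, doublets, gate strictness, count minimum, totals, TMM scaling, thinning and barcode weighting.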

Additional observations from a re-analysis of the deposited data

Results flagged for a closer look

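The IL6ST difference between the libraries ran in opposite directions in 2 gates. Its log2 ratio, A.G.-ES over untreated, was 1.09 in B barcodes and −0.90 in SOX13/RHEX T barcodes. Each group has 1 library, and the difference between these ratios was not tested.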

How the results depend on the processing

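A value counted as the same within the counting interval of the reported value. For counts of genes and the reference genes' median, within 1.5 times was used instead. Of 197 values recomputed for 21 results under 11 settings, 185 stayed the same, 11 moved and 1 reversed. A log2 ratio changed sign in 4: that reversal and 3 that were within 1.5-fold as reported, IL6ST in CD4 T barcodes under TMM scaling (0.07) and IL6R in cycling barcodes with doublets kept (−0.08) or equal weights (−0.78). The settings that leave out shared barcodes or ask for 2 markers were chosen after seeing the data. The reversal was IL6R in SOX13/RHEX T barcodes, 0.094 with at least 4 lineage markers; the cause was not tested, but only 6 A.G.-ES and 7 untreated UMIs remained. Thinning was 1 random draw per barcode, so its values also carry the sampling error of that draw. IL6ST in B barcodes was 1.89 in that draw (range over settings 0.75 to 1.89). IL31RA in untreated B barcodes was 31.0 CPM without ribosomal, mitochondrial and haemoglobin genes in the totals. In B barcodes 1020 genes were higher in the A.G.-ES library with a minimum of 100 UMIs and 3163 with none (1898 as reported). In CD4 T barcodes 352 were higher with 100 (1071 as reported), and 916 were lower with TMM scaling, 761 with 100 and 2715 with none (1539 as reported). In SOX13/RHEX T barcodes 215 were higher with 100 and 2303 with none (835 as reported), and 720 were lower with 100 (1544 as reported). The minimum changes how many genes are tested. TMM scaling shifted all log2 ratios by 0.17 in CD4 T, 0.28 in CD8B T, 0.11 in SOX13/RHEX T and 0.10 in monocyte barcodes, and by 0.13 in the T gates together. IL6ST passed 1.5-fold in cycling barcodes with doublets kept (0.81) and in monocytes in the thinning draw (0.75). That draw left an IL6ST UMI in 10 A.G.-ES and 4 untreated monocytes, and over all possible draws the shares were 4.33% and 3.55%. The IL31RA log2 ratio in B barcodes ran from −7.75 to −6.68, IL31RA in the T gates from 72.9% to 99.2% of the B level, and the reference genes' median from 1.54% to 2.35%. The thinning draw left no A.G.-ES UMI for the IL31RA ratio in B barcodes or for IL6R and IL6ST in cycling barcodes, so those have no value. TMM does not apply to a level within 1 library. No paired analysis was possible because each group has 1 library. Counts of 0 to 4 limit OSMR and LIFR, and few barcodes limit the NK gate and the small divisions.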
